A study of Mus musculus with 6 samples.

Results

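Keratins are the intermediate filament proteins of epithelial cells. A type I (acidic) keratin pairs with a type II (basic) keratin, and the pair assembles into filaments that anchor to desmosomes and hemidesmosomes. The pairs mark tissue layers: Krt8 with Krt18 is typical of simple and luminal epithelium, Krt5 with Krt14 of the basal layer of stratified epithelia and of the basal cells of the mammary gland, and the hair keratins of the hair shaft and inner root sheath. The members here were every gene whose symbol was Krt followed by digits and at most 1 lower-case letter, which gave 54 of the 55809 genes in the count table. Of these, 28 encode type I and 26 encode type II keratins. By textbook class, 6 are keratins of simple epithelia, 21 of stratified epithelia and 25 of hair or inner root sheath, and 2 (Krt80 and Krt222) were placed in no class.

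The libraries came from HC11, an established mouse mammary epithelial cell line that the study used as a luminal line, grown in medium without BMP7 (Ctrl, 3 libraries) or with it (BMP7, 3 libraries). The methods of the study describe starving HC11 cells before BMP7 was added, and give a shorter and a longer exposure without naming the one used for these libraries. BMP7 is a secreted ligand of the bone morphogenetic protein family that signals through SMAD1 and SMAD5, and the comparison asks which keratin mRNAs differed when it was added. The labels name no genotype beyond the line and do not say that the libraries of a group came from separate cultures, so p-values measure the spread between these libraries, which may be technical. Libraries are named by the number of their column in the count table: Ctrl replicates 1, 2 and 3 and BMP7 replicates 1, 3 and 4.

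Total counts ranged from 19858701 to 20327200 in Ctrl and from 14607938 to 23748970 in BMP7, and keratins took 0.664% to 0.704% and 0.699% to 0.870% of them. BMP7 replicates 3 and 4 stood apart from the other libraries in markers of other cell types. The summed level of 12 adipocyte markers was 26.4 to 36.7 CPM (counts scaled to library size) in Ctrl, 40.6 in BMP7 replicate 1, 110 in replicate 3 and 97.5 in replicate 4, and 9 of the 9 tested were called higher. The sum of 14 macrophage markers was 52.1 to 56.3 CPM in Ctrl, 54.6 in BMP7 replicate 1, 28.5 in replicate 3 and 27.0 in replicate 4, and 3 of the 12 tested were called lower. Of 8 fibroblast markers, 7 were tested, 4 were called higher and 1 lower, while their sum was 115 to 126 CPM in Ctrl and 103 to 122 CPM in BMP7. Beside these counts, 5.94% of all genes tested were called higher and 5.31% lower. Dcn stood at 0.736 to 1.73 CPM in Ctrl, 1.74 in BMP7 replicate 1, 4.44 in replicate 3 and 4.90 in replicate 4, and Dpt at 0.195 to 0.529, 0.279, 2.40 and 1.98 CPM. With those 2 libraries left out, so that BMP7 replicate 1 stood alone and was assumed to vary like Ctrl, the same 8 keratins were called as with all 6 libraries. Markers of mammary epithelium were mixed. Luminal Epcam and Cdh1 averaged 639 and 982 CPM in Ctrl, while Pgr had no count in any library, Csn2 had at most 1 count and Foxa1 stayed at or below 0.533 CPM. Of 8 basal or myoepithelial markers, 6 were tested and 2 were called higher, Trp63 and Oxtr, against 5.94% of all genes tested. In Ctrl, Trp63 averaged 237 CPM, Cdh3 45.0, Oxtr 12.3 and the contractile gene Mylk 3.76. The contractile genes Acta2, Cnn1, Myh11 and Tagln stayed below 1 CPM in every library.

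Levels were compared between genes as TPM, in which each count is divided by the exon length of the gene and scaled to the library. In Ctrl cells most of the keratin mRNA pool came from keratins classed as stratified. It was chiefly Krt14 and Krt5, the pair that also marks basal cells of the mammary gland. The 21 stratified keratins held 97.9% of all keratin TPM, the 6 simple keratins 2.01% and the 25 hair keratins 0.00713%. Krt14 stood at 5861, 5277 and 5142 TPM in Ctrl replicates 1, 2 and 3, a mean of 5427 ± 382 (SD, n = 3), which ranked 14 among all genes. Its partner Krt5 stood at 3358, 3341 and 3163 TPM, a mean of 3287 ± 108 (SD, n = 3) and rank 27. Every Ctrl library held more Krt14 than Krt5, and more of either than of any other keratin.

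Krt17, a keratin of skin appendages and of injured epidermis, came next at 377 ± 29.1 TPM (SD, n = 3). The simple pair followed, with Krt18 at 94.2 ± 6.08 TPM and Krt8 at 88.2 ± 7.53 TPM (SD, n = 3 each), and the ranges of these 2 genes overlapped. The summed TPM of Krt5 and Krt14 was 46.8, 49.8 and 46.9 times that of Krt8 and Krt18 in the 3 Ctrl libraries. Krt79 averaged 63.1 TPM and Krt16 34.7 TPM. Below them, Krt6a (11.9), Krt15 (11.4), Krt10 (7.54), Krt42 (7.43), Krt80 (6.75) and Krt7 (6.67) could not be put in a firm order, because the Ctrl values of each gene overlapped those of the next. Krt6b averaged 3.74 TPM and Krt78 0.966 TPM. The long summed exon lengths of Krt7 (7049 bases), Krt80 (6393) and Krt79 (4753) lower their TPM.

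**Figure D1:**
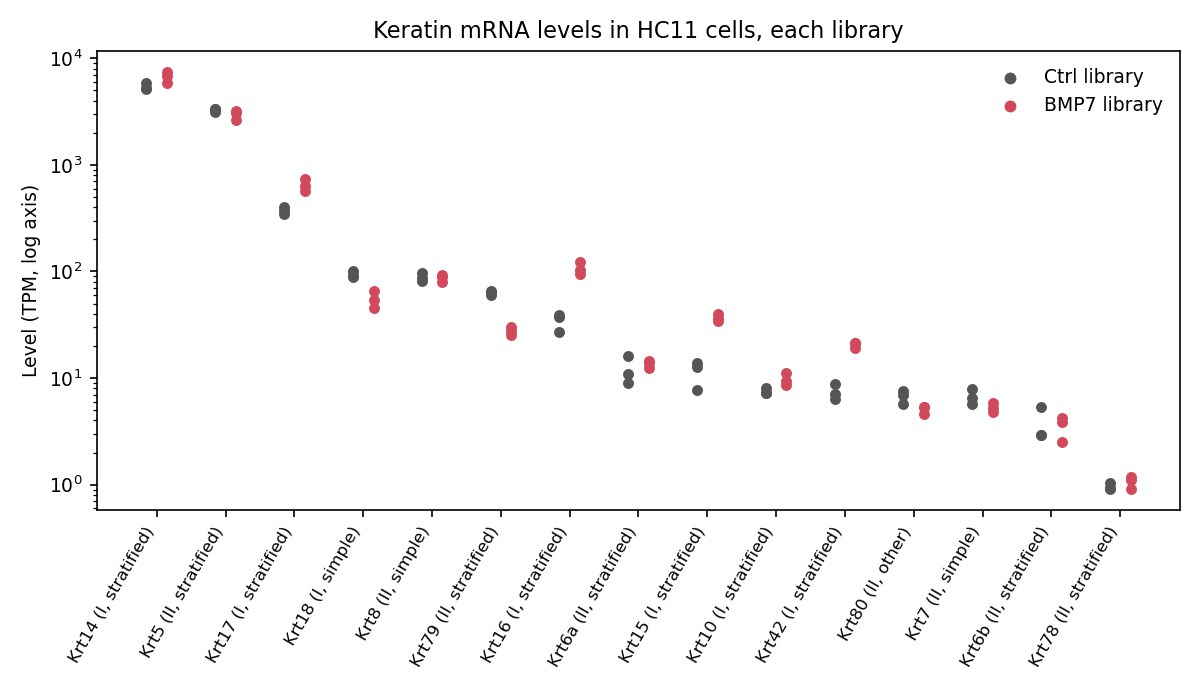
Level of each of the 15 keratins that passed the count filter, in TPM on a log axis, with 1 point per library (grey, Ctrl; red, BMP7) and genes ordered by mean Ctrl level, type and class in brackets. Krt14 and Krt5 lie far above the rest, and the points of the 2 groups separate clearly for Krt16, Krt15, Krt42, Krt17, Krt79 and Krt18.

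Some of these levels are uncertain because fragments that match several places were not counted. At 95% identity or more over at least 100 bases, 56.2% of the Krt16 transcript matched Gm11597, 53.4% of Krt6b matched Krt6a, 66.9% of Krt6a matched Krt6b or 3 other annotated genes, and 51.8% of Krt8 matched other genes, chiefly the pseudogene Krt8-ps. Gm11597 itself had 1 to 9 counts in 5 libraries and 134 in BMP7 replicate 3. Krt8-ps had 680, 604 and 654 counts in Ctrl and 480, 773 and 616 in BMP7, beside 1374, 1178 and 1338 and 989, 1448 and 1236 of Krt8. No such copy was found for Krt14, Krt15, Krt17, Krt42, Krt10, Krt18, Krt79, Krt7 or Krt78. Only the longest annotated transcript of each gene was searched. For Krt79 and Krt7 it covered 2451 and 4094 bases, against 4753 and 7049 bases of counted exons. Fragments in exons shared with an overlapping gene were not counted either. This touched 24.8% of the exon bases of Krt6a, 6.91% of Krt10 (shared with Gm11940) and less than that of the others.

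A keratin was tested where at least 3 libraries held 10 or more counts, and was called where edgeR's quasi-likelihood test gave a Benjamini-Hochberg adjusted p below 0.05 over all genes tested and the fold change passed 1.2. Of the 54 keratins, 15 were tested: 11 stratified, 3 simple, 1 unclassed and no hair keratin. With BMP7, 6 of the 15 rose, namely Krt15, Krt16, Krt42, Krt17, Krt10 and Krt14, all of them type I keratins of stratified epithelium, and 2 fell, the type II stratified keratin Krt79 and the type I simple keratin Krt18. Of the 8 tested type II keratins, with all 6 libraries, 0 were called higher by edgeR or DESeq2 and 0 had an unadjusted edgeR p below 0.05 in that direction. Among the alternatives, edgeR called Krt6a higher without Ctrl replicate 2, and Krt75, also type II, with no count filter. Across the 15821 genes tested, 11.3% were called, 5.94% higher and 5.31% lower. The groups did not overlap for the 8 called keratins and overlapped for the other 7, against 29.7% of all genes tested without overlap. The median log2 fold change was 0.27 over the tested keratins and -0.0063 over all genes tested, and the median size of change was 0.429 against 0.143. In these bulk libraries a change in the number of cells that express a gene and a change in mRNA per cell cannot be told apart.

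Regions just upstream of RefSeq start sites are shown here for the most abundant pair and the called keratins with a RefSeq promoter entry. These genes lie in compact clusters yet moved differently. Entries were found for 36 of the 54 keratins and 9 of the 15 tested, and for Krt15, Krt16, Krt17, Krt6a, Krt6b and Krt80 the promoter is not shown. Each run is the 250 bases before the start site of the RefSeq entry, 5′ to 3′ on the strand of the gene, in build GRCm38.p6. Allowing for the offset between builds seen at neighbouring keratins, the start sites of the Krt14 and Krt7 entries lie inside the counted genes. The Krt14 run, and the one searched for Krt7, may therefore not be the promoter in use. Capitals mark a match on either strand. The TATA box was searched as TATAAA. The AP-1 site, bound by Jun and Fos proteins, was searched as TGANTCA. A site of SMAD1 and SMAD5 was searched as GGCGCC.
Krt14, chr11:100206031-100206280 (minus strand): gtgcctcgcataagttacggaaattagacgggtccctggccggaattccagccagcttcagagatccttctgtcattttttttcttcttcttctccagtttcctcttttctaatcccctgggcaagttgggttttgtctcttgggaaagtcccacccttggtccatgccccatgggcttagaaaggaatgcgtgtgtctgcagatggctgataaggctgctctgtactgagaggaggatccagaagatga
Krt5, chr15:101712906-101713155 (minus strand): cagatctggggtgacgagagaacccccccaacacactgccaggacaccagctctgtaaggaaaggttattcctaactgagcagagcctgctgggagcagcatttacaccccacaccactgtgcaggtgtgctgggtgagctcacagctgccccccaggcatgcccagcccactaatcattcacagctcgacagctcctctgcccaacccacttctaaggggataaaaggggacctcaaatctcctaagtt
Krt10, chr11:99389365-99389614 (minus strand): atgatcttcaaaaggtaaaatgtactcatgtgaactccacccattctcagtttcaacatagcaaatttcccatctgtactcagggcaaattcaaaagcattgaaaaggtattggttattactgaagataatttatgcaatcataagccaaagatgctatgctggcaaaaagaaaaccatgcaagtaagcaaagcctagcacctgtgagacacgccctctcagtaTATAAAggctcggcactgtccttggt
Krt42, chr11:100269952-100270201 (minus strand): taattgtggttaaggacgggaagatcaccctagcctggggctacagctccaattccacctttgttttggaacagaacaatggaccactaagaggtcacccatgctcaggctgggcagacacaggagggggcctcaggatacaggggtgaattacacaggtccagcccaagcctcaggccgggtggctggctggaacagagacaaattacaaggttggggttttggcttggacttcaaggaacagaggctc
Krt18, chr15:102027966-102028215 (plus strand): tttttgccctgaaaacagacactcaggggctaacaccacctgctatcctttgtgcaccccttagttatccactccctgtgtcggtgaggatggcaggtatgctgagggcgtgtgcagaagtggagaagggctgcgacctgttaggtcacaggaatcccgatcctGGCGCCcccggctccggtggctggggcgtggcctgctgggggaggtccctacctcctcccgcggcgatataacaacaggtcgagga
Krt79, chr15:101940325-101940574 (minus strand): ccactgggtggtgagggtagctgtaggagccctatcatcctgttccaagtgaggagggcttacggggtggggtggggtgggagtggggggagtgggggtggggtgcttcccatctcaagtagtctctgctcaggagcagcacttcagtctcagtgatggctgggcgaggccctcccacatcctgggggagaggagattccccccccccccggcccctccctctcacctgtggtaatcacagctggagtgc
Among the 9 tested keratins with an entry, the TATA box letters occurred in 1, the Krt10 promoter at base -26 from the start site, and the SMAD letters in 1, the Krt18 promoter at base -86. The AP-1 letters occurred in 0 of the 9. These 9 include Krt14 and Krt7, whose runs may not be the promoters in use. Of all 32851 promoters of this length, 12.4% held the TATA box letters, 6.75% the AP-1 letters and 9.59% the SMAD letters. No match overlapped another in these runs.

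Changes between groups are given in CPM scaled by edgeR's TMM factors. Krt15 and Krt16 had the highest fitted fold changes, which lay within their errors and changed order without Ctrl replicate 2 (1.61 and 1.80 on the log2 scale), without BMP7 replicate 3 (1.73 and 1.78) and without BMP7 replicates 3 and 4 (1.72 and 1.95). Krt15 is a keratin of basal keratinocytes and of the hair follicle bulge (chromosome 11, 100022584 to 100026754, minus strand, in the mm39 annotation named in the count table), and it stood at 8.61, 4.96 and 8.50 CPM in Ctrl replicates 1, 2 and 3 and at 24.2, 29.5 and 24.5 CPM in BMP7 replicates 1, 3 and 4. The lowest BMP7 library was well above the highest Ctrl library, and Ctrl replicate 2 was the lowest of all. The fitted log2 fold change was 1.83 ± 0.16 (SE), a 3.55-fold rise with an edgeR adjusted p of 4.23e-07.

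Krt16, which is induced in wounded and hyperproliferative epidermis, rose from 21.6, 21.5 and 16.2 CPM to 76.4, 61.5 and 60.1 CPM. Its log2 fold change was 1.73 ± 0.11 (SE; edgeR adjusted p = 1.13e-08), and the BMP7 library with the 134 counts of Gm11597 was not the highest for Krt16. Krt42, a type I keratin that is active in mouse and a pseudogene in human, rose from 5.48, 4.07 and 4.79 CPM to 14.8, 14.1 and 14.2 CPM. The BMP7 libraries of Krt42 lay close together and none approached the Ctrl range. Its log2 fold change was 1.59 ± 0.13 (SE; edgeR adjusted p = 3.28e-07), a 3.00-fold rise.

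Krt17 stood at 206, 230.1 and 205 CPM in Ctrl and at 457, 364 and 366 CPM in BMP7. BMP7 replicate 1 was the highest, and all 3 were above every Ctrl library. The log2 fold change was 0.89 ± 0.08 (SE; edgeR adjusted p = 1.17e-06). Krt14, the most abundant keratin, stood at 3626, 3388 and 3437 CPM in Ctrl and at 5253, 4278 and 4540 CPM in BMP7. Its log2 fold change of 0.43 ± 0.08 (SE; edgeR adjusted p = 0.00102) was a 1.35-fold rise. Krt10, which pairs with Krt1 in the suprabasal layers of skin, stood at 6.01, 5.64 and 5.81 CPM in Ctrl and at 9.33, 8.26 and 6.77 CPM in BMP7. Its rise (log2 fold change 0.47 ± 0.15 SE) sat at the threshold with an edgeR adjusted p of 0.0464. The call was lost with DESeq2, with upper-quartile scaling and without Ctrl replicate 1, 2 or 3 or BMP7 replicate 1 or 3, where the log2 fold change stayed between 0.37 and 0.49.

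**Figure D2:**
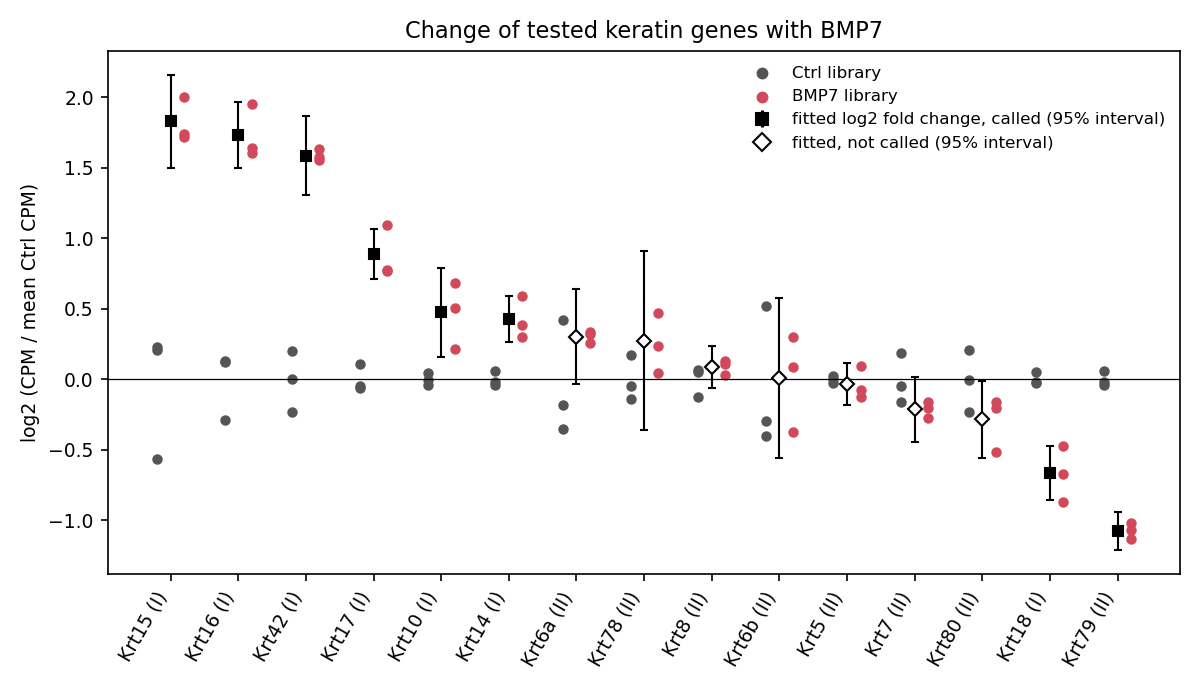
Change of the 15 tested keratins with BMP7, as log2 of CPM over the mean Ctrl CPM, with 1 point per library and, for each gene, the fitted log2 fold change with its 95% interval (filled squares, called; open diamonds, not called; type in brackets). The 6 genes at the left that rose are type I, at 0.43 to 1.83, and Krt18 and Krt79 at the right fell by 0.67 and 1.08.

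Krt79, a type II keratin known in mouse from the hair canal and sebaceous duct (chromosome 15, 101837767 to 101848759), stood at 107, 114 and 108 CPM in Ctrl and at 52.2, 49.9 and 54.0 CPM in BMP7. Both groups were tight and far apart. The log2 fold change was -1.08 ± 0.06 (SE; edgeR adjusted p = 4.75e-09), the smallest adjusted p among the keratins. Krt18 (chromosome 15, 101936615 to 101940462) is the type I gene that lies at the end of the type II cluster. It stood at 51.1, 48.4 and 48.8 CPM in Ctrl and at 31.1, 27.0 and 35.7 CPM in BMP7. Every BMP7 library was below every Ctrl library, and its log2 fold change was -0.67 ± 0.09 (SE; edgeR adjusted p = 5.89e-05). The luminal markers Epcam and Cdh1 fell with it, by 0.42 and 0.27 on the log2 scale (edgeR adjusted p = 0.000118 and 0.00613). The luminal factor Gata3 rose by 1.06 on that scale (edgeR adjusted p = 4.48e-07). Of 10 tested luminal markers, 1 was called higher and 3 lower, against 5.94% and 5.31% of all genes tested. The summed level of the 14 listed luminal markers was 1802 to 1834 CPM in Ctrl and 1538 to 1567 CPM in BMP7. Most of that sum was Epcam and Cdh1, which averaged 639 and 982 CPM in Ctrl and 479 and 817 CPM in BMP7. The sum therefore mainly restates these genes. The part of the luminal markers in the fall of Krt18 was not tested.

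The 7 tested keratins that were not called were all type II, and the only called type II gene was Krt79. Krt5, the partner of Krt14, stood at 2596, 2681 and 2642 CPM in Ctrl and at 2816, 2420 and 2500 CPM in BMP7. BMP7 replicate 1 was the highest and replicates 3 and 4 the lowest of the 6. The log2 fold change was -0.03, with a 95% interval of -0.18 to 0.11 (edgeR adjusted p = 0.811). Krt8, the partner of Krt18, stood at 66.1, 57.8 and 65.3 CPM in Ctrl and at 68.9, 64.3 and 68.0 CPM in BMP7, and its 95% interval was -0.06 to 0.23. The interval of Krt5 does not reach the 0.43 fitted for Krt14, nor that of Krt8 the -0.67 fitted for Krt18.

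Krt6a and Krt6b, the wound-induced type II keratins that can pair with Krt16 and Krt17, were less well determined. Krt6a stood at 9.28, 14.1 and 8.25 CPM in Ctrl and at 13.3, 12.6 and 13.1 CPM in BMP7. Ctrl replicate 2 lay above all BMP7 libraries, and without it the log2 fold change moved from 0.30 to 0.57 and was called (edgeR adjusted p = 0.0140). Krt6b stood at 2.31, 4.37 and 2.49 CPM in Ctrl and at 3.76, 2.35 and 3.25 CPM in BMP7, with a 95% interval of -0.56 to 0.58. Ctrl replicate 2 was again the highest, and the sign of the Krt6b estimate depended on which library was left out.

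Krt7, a keratin of ductal simple epithelium, stood at 19.5, 16.6 and 15.3 CPM in Ctrl and at 14.8, 14.2 and 15.4 CPM in BMP7, with a 95% interval of -0.44 to 0.01. Krt80 stood at 15.7, 13.4 and 18.3 CPM in Ctrl and at 13.7, 14.2 and 11.1 CPM in BMP7. The 95% interval of Krt80 was -0.56 to -0.01, and its edgeR adjusted p of 0.174 missed the threshold. Krt78, the lowest in counts of the keratins tested, had 23, 24 and 28 counts in Ctrl and 18, 38 and 26 in BMP7. Its 95% interval was the widest of the 15, -0.36 to 0.91.

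The 8 keratins with more than 3 counts in some library that missed the filter were counted and not tested. Krt75, a keratin of the companion layer of the hair follicle, had 0, 1 and 0 counts in Ctrl and 10, 10 and 2 in BMP7. It was the only hair keratin above 3 counts in any library, and with no count filter it was called higher (edgeR adjusted p = 0.00720). Since the Ctrl libraries lie at or below the floor of 3 counts, no fold change is given. Krt19, the luminal keratin, had 1, 4 and 1 counts in Ctrl and 1, 8 and 0 in BMP7. Krt23 had 10, 6 and 4 counts against 4, 5 and 1. Krt13, a keratin of internal stratified epithelia, had 3, 0 and 0 counts against 0, 10 and 2, and Krt90 had 3, 11 and 2 against 5, 16 and 3. The groups of these 4 genes overlapped. Krt9, Krt76 and Krt222 had at most 4 counts in any library. The remaining 31 keratins, 24 of them hair or inner root sheath keratins, had at most 3 counts in every library, and 13 of those had none. Krt1, the partner of Krt10, had no count in any library, and Krt4, the partner of Krt13, had at most 2. A floor of 3 counts corresponds to 0.133 to 0.209 CPM, and it covers counting error only.

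Type I keratins other than Krt18 lie together on chromosome 11 and type II keratins on chromosome 15. The last 7 keratins of the chromosome 11 cluster, from Krt15 to Krt42, were Krt15, Krt19, Krt9, Krt14, Krt16, Krt17 and Krt42. Of these, 5 were called higher, and Krt19 and Krt9 were below the filter. Krt10 lies apart from them, at 99276080 to 99280190. On chromosome 15, called and uncalled genes were neighbours: Krt79 and Krt18 fell, while Krt78 and Krt8, which lie between them, were not called.

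**Figure D3:**
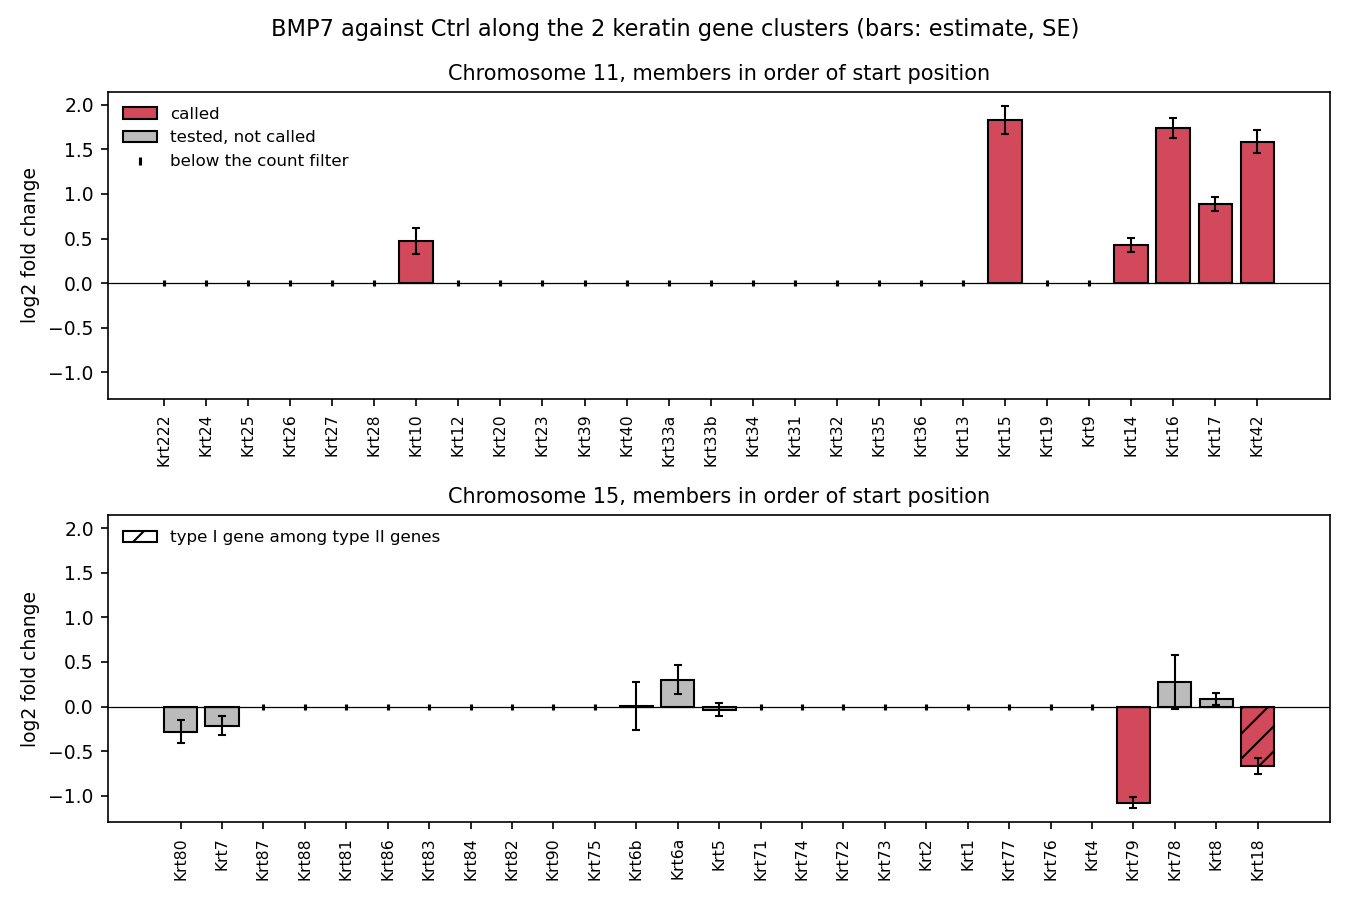
Log2 fold change (BMP7 against Ctrl) of the keratins on chromosomes 11 and 15 in order of start position, with SE (red bars, called; grey bars, tested and not called; ticks, below the count filter; hatched, Krt18, a type I gene among type II genes). On chromosome 11 the 5 called genes from Krt15 to Krt42 sit at one end, and on chromosome 15 the 2 called genes are Krt79 and Krt18.

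Within a library, ratios between keratins do not depend on the scaling factor. The summed TPM of type I over type II keratins was 1.81, 1.66 and 1.69 in Ctrl and 2.52, 2.38 and 2.43 in BMP7. Krt14 and Krt5 made up most of these sums, which averaged 5961 and 3469 TPM in Ctrl. Without them, type I and type II keratins summed to 534 and 182 TPM in Ctrl and 876 and 144 TPM in BMP7. Krt14 over Krt5 was 1.75, 1.58 and 1.63 in Ctrl and 2.33, 2.21 and 2.27 in BMP7. Krt18 over Krt8 went the other way, from 1.05, 1.14 and 1.02 in Ctrl to 0.614, 0.573 and 0.714 in BMP7. The groups did not overlap for any of these 3 ratios. Krt16 over Krt6a was 3.59, 2.36 and 3.04 in Ctrl and 8.87, 7.57 and 7.07 in BMP7, and the levels of Krt16, Krt6a and Krt8 in these ratios carry the doubt about copies given above. Krt5 and Krt14 over Krt8 and Krt18 ranged from 46.8 to 49.8 in Ctrl and from 62.5 to 75.2 in BMP7. These ratios are descriptions of chosen genes and carry no test.

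**Figure D4:**
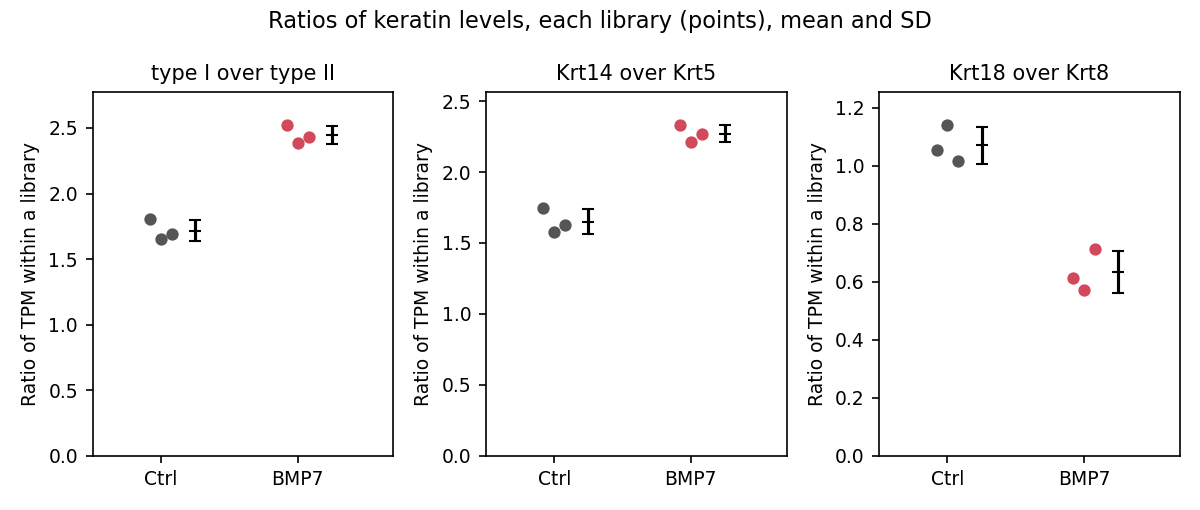
Ratio of summed TPM of type I over type II keratins, of Krt14 over Krt5 and of Krt18 over Krt8 within each library (points), with the group mean and SD, on axes that start at 0. The first 2 ratios were higher in every BMP7 library than in every Ctrl library, and Krt18 over Krt8 was lower. Type I over type II, set mostly by Krt14 and Krt5, stood at 1.66 to 1.81 in Ctrl and 2.38 to 2.52 in BMP7.

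Summed over classes, the change depended on the scale, because TPM placed the median of all tested genes 0.12 lower in BMP7 on the log2 scale while TMM-scaled CPM placed it at -0.0072. In TPM, stratified keratins summed to 9233 ± 485 in Ctrl and 10591 ± 1224 in BMP7 (SD, n = 3), and the groups overlapped. In TMM-scaled CPM per kilobase they summed to 3373 ± 49.5 and 4184 ± 421, without overlap. Simple keratins were lower in BMP7 on both scales, at 190 ± 13.9 against 148 ± 17.4 TPM and 69.3 ± 3.28 against 58.3 ± 3.95 CPM per kilobase. Krt14 carried the stratified sum: without it the log2 ratio of the TPM sums went from 0.20 to 0.01. Type I keratins without Krt14 summed to 195 ± 8.48 CPM per kilobase in Ctrl and 346 ± 39.6 in BMP7, and type II keratins without Krt5 to 66.6 ± 0.249 and 57.0 ± 1.82, without overlap (SD, n = 3). In the type II sum without Krt5, Krt79 was the only called gene. Mean Krt79 went from 63.1 TPM in Ctrl to 27.7 TPM in BMP7, while that sum went from 182 to 144 TPM. The fall of the sum is therefore mostly that of Krt79. Hair keratins summed to 8 to 22 counts in a library.

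Genes that work with keratins were read from lists. Of 18 other intermediate filament genes, 8 were tested and 0 were called by edgeR or DESeq2, with 4 at an unadjusted edgeR p below 0.05. At an edgeR adjusted p of 0.0448, the lamin gene Lmna fell short of the fold threshold (459, 468 and 452 CPM in Ctrl; 567, 485 and 543 CPM in BMP7). Vim, the mesenchymal filament gene, had a log2 fold change of -0.21 with an edgeR adjusted p of 0.0586. Of 24 genes for proteins that link keratins to junctions, 23 were tested, 2 were called higher and 4 lower, which is 26.1% against 11.3% of all genes. The cytolinkers Ppl, Eppk1 and Evpl fell by 0.90, 0.52 and 0.50 on the log2 scale, and the desmosomal cadherin Dsc2 by 0.38. Itga6, the integrin subunit of hemidesmosomes, rose by 0.43, and Ppp1r13l by 0.30. The Eppk1 call was lost without Ctrl replicate 1 or 3, BMP7 replicate 4, or BMP7 replicates 3 and 4 together, and that of Ppp1r13l without Ctrl replicate 1 or BMP7 replicate 3.

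Of 36 listed genes of the cornified envelope and epidermal differentiation, 35 were in the count table and 17 were tested. By edgeR, 8 were called higher (47.1%, against 5.94% of all genes tested) and 0 lower (against 5.31%), with 0 lower by DESeq2 or at an unadjusted edgeR p below 0.05. Sprr2h, a small proline-rich envelope protein, went from 1.73, 1.72 and 1.86 CPM to 10.2, 10.6 and 5.89 CPM, a log2 fold change of 2.32 ± 0.23 (SE; edgeR adjusted p = 1.81e-06). The transglutaminases Tgm3 and Tgm1, which crosslink the envelope, rose by 2.08 and 1.69, and Sprr1b went from 9.81 to 11.2 CPM in Ctrl to 26.2 to 33.5 CPM in BMP7 (edgeR adjusted p = 5.13e-08). Cnfn and Cdsn rose by 2.18 and 1.80 from below 0.5 CPM, and lost the call without Ctrl replicate 2 (and Cnfn also without replicate 3). Both passed the count filter only through their BMP7 libraries, so they could enter the 8 only as rises. The terminal genes Ivl and Flg were nearly silent, at no more than 0.557 and 0.0962 CPM. All 58 keratin-associated protein genes of the hair shaft were below the filter, 57 of them at or below 3 counts in every library.

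Of 31 genes for transcription factors known to act on keratin genes, 28 were tested, 13 were called higher and 2 lower (53.6%, against 11.3% of all genes tested). Hoxc13, the hair keratin regulator, had at most 2 counts in Ctrl and stood at 2.37, 2.09 and 1.21 CPM in BMP7, at least 12.9-fold higher against a floor of 3 counts in each Ctrl library. Dlx3 stood at 0.0962, 0.344 and 0.0488 CPM in Ctrl and at 2.92, 1.91 and 2.64 CPM in BMP7. Hoxc13 and Dlx3 passed the count filter only through their BMP7 libraries, so they could enter the 13 only as rises. The AP-1 genes Junb and Jun rose by 1.39 and 1.33 on the log2 scale, Ovol1 by 1.48 and Grhl1 by 1.13. The 2 called lower were Tfap2c and Grhl2, with log2 fold changes of -0.89 and -0.29. Trp63, which sustains Krt5 and Krt14 in basal cells and was chosen for mention after its values were seen, rose from 229 to 243 CPM in Ctrl to 349 to 396 CPM in BMP7, a log2 fold change of 0.64 ± 0.06 (SE; edgeR adjusted p = 1.94e-06). Of 8 hair follicle markers, 5 were tested and 3, Hoxc13 among them, were called higher, against 5.94% of all genes. The sum of the 8 was 79.2 to 92.9 CPM in Ctrl and 127 to 132 CPM in BMP7, while Lef1 had at most 2 counts. Of 8 listed epidermal keratinocyte markers, 5 were tested, with 1 called higher (Cnfn) and 1 lower (Dsg1a), against 5.94% and 5.31% of all genes. Their part in the keratin changes was not tested.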

How the data were processed

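RNA of HC11 cells was sequenced by the authors as paired-end poly(A) libraries in 3 Ctrl and 3 BMP7 samples. Reads were aligned with subjunc of Subread (version 2.0.3 in the submitters' processing notes). The deposited counts are raw fragments per gene from featureCounts (2.0.1 per the file headers), over exons, without strand, leaving out fragments that match several places or genes. The methods name mm10, and the file header names an mm39 annotation. The other deposited column used is the exon length. BMP7 columns were placed by group, since their numbers differ from those of the labels.

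Genes with 10 or more counts in at least 3 libraries were tested with edgeR 4.0.16 (quasi-likelihood, TMM, R 4.3.3), Benjamini-Hochberg adjusted, on 4 residual degrees of freedom; intervals use the moderated degrees of freedom. The self-test on simulated counts ran first. TPM and CPM were computed from the counts. Copies were searched with BLAST 2.17.0 in GENCODE transcripts of GRCm38, and promoters are from RefSeq (GRCm38.p6). Replicates of a group differed by more than sampling noise (chi-square per degree of freedom 5.29 to 12.8). Alternatives included DESeq2 1.42.0, other scalings and filters, and each library left out; leaving out BMP7 replicates 3 and 4 and CPM per kilobase were chosen after seeing the data. Every keratin past the filter was named, members below it where a library had over 3 counts, and up to 6 called genes of each list by size of change. Tfap2c and Grhl2 were added as the transcription factors called lower. The members and lists were chosen with earlier results of these data known.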

Additional observations from a re-analysis of the deposited data

How the results depend on the processing

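Of the 8 called keratins, 7 (all but Krt10) kept their call and direction in each of 13 alternatives at the fold threshold of 1.2: DESeq2, RLE and upper-quartile scaling, no filter, edgeR's filter, 10 counts in every library, each of the 6 libraries left out and BMP7 replicates 3 and 4 left out together (chosen after seeing the data). Krt10 kept its direction, with adjusted p from 0.0205 to 0.141. The Krt6b estimate (0.0088) reversed to -0.0107 with upper-quartile scaling and ran from -0.16 to 0.36 with a library left out. The Krt5 estimate (-0.03) ran from -0.10 to 0.0116 with 1 library left out and was 0.10 without BMP7 replicates 3 and 4. Raising the fold threshold from 1.2 to 1.5 left 471 genes called higher and 301 lower of 940 and 840, and 2 of 6 listed genes called lower. It left 4 of the 6 keratins called higher, without Krt14 and Krt10, and both called lower. The log2 ratio of the simple class was -0.36 in TPM, -0.20 in CPM and -0.0468 without Krt18, and that of the stratified class fell from 0.20 to 0.0115 without Krt14. The causes were not tested. With 3 libraries a group, Krt78 and Krt6b, at a mean of 1.22 and 3.06 CPM in Ctrl, had intervals wider than 1 log2 unit. Of the keratins below the filter, only Krt75 was called when the filter was dropped. No paired analysis was possible because the numbers of the BMP7 columns could not be matched to those of the labels.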
